A study of Manis javanica with 3 samples.

Results

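The genes described here encode the alcohol, aldehyde and carbonyl dehydrogenases and reductases of the Malayan pangolin, Manis javanica. They were chosen by the gene symbol in the deposited annotation, namely ADH followed by a digit, any symbol starting with ALDH, AKR1, AKR7, DHRS, RDH, HSD11B or AOX, and DHDH. The rule found 61 annotated genes, of which 59 were among the 24220 genes of the expression tables. The other 2, an AKR1C5 gene and an RDH12 gene, are not analysed here. Copies of a gene are named by the product of their best hit in the NR protein database, followed by the gene identifier where a name is shared.

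RNA was sequenced from the salivary glands, the liver and the small intestine of 1 adult female, a wild animal that died while being rescued, with 1 library per tissue. No value given here has a replicate check, so tissue and library cannot be told apart and no p-value is given. Each gene has a count of fragments and an FPKM (fragments scaled for transcript length and for the mapped fragments of the library), and expression here means an FPKM above 1. A fold is the ratio of the counts of 2 libraries after scaling by 1 TMM factor per library (a factor that evens out differences in library composition), and the range in brackets after a fold is its exact 95% interval. The interval covers counting error only, since fragments amplified by PCR are not independent molecules. A gene was called higher in a library at 2-fold or more if its FPKM there was above 1. In whole tissue, fewer cells of a type and less RNA per cell cannot be told apart.

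Before the results, the labels were set against marker genes. In the library labelled small intestine 11 of 16 genes of a gastric list were expressed, led by acidic chitinase (CHIA) with an FPKM of 43108 and gastricsin (PGC, gene7091) with 9427, and their summed FPKM was 66865, against 59.1 in the salivary glands and 5.02 in the liver. Of 24 genes of an enterocyte list 7 were expressed in it, against 5 in the salivary glands and 10 in the liver. Among the 7 were villin (VIL1, gene24763) at 23.995, dipeptidyl peptidase 4 (gene1020) at 3.06 and the glucose carrier SLC5A1 (gene6542) at 1.94. The rest were relatives taken in by symbol, namely aminopeptidase O, dipeptidyl peptidases 8 and 9 and advillin. Villin had 25.7 in the salivary glands and 21.2 in the liver. Aminopeptidase N (gene3988) at 0.758, the peptide carrier SLC15A1 at 0.623 and intestinal alkaline phosphatase at 0.0507 were not expressed in the library labelled small intestine. The defining genes LCT and FABP2 had no count in it and sucrase-isomaltase (gene7608) had 2 counts, so this library is called below by its label only. All 7 genes of a hepatocyte list were expressed in the liver, where they summed to an FPKM of 18371. The sum was 128 in the library labelled small intestine and 173 in the salivary glands. Of the 7, 6 were called higher in the liver than in each other library. The remaining gene, taken in by the symbol TTR, has the product 5-hydroxyisourate hydrolase (gene10056), with 35.1 in the liver and 53.1 in the salivary glands. Albumin had 89.1 in the library labelled small intestine and 434 in the liver. SERPINA1 had 120 in the salivary glands and 586 in the liver. Of 5 genes of a salivary list 2 were expressed in the salivary glands, aquaporin-5 at 94.3 (24.7 in the liver) and PIP at 28.0, while lactoperoxidase (gene8992) had 0.175 there and 0.182 in the library labelled small intestine. The macrophage gene CD163 had 7.67, 6.96 and 61.0 and the CSF1 receptor (gene22971) 0.400, 0.744 and 9.27, while the whole macrophage list, which by symbol also took in receptors such as FGFR1, summed to 78.1, 26.1 and 135. Pancreatic acinar genes to 33.9, 8.01 and 23.6, goblet and Paneth genes to 47.9, 18.3 and 30.9, and erythroid genes to 4.06, 0.0625 and 0.512, each in the order of library labelled small intestine, salivary glands and liver. Their part in the values that follow was not tested. Counts summed to 10158924, 8318686 and 14568778 in the same order, and at these depths a count of 0 allows up to 0.295, 0.361 and 0.206 CPM (counts scaled to library size).

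These enzymes move electrons between alcohols, aldehydes, ketones and acids. Alcohol dehydrogenases and the short-chain enzymes of the RDH and DHRS families turn alcohols such as ethanol and retinol into aldehydes and back, aldehyde dehydrogenases and the molybdenum-containing aldehyde oxidases turn aldehydes into acids, and aldo-keto reductases bring aldehydes, ketones and steroids to alcohols. The liver is known as the main site of ethanol, drug and amino acid oxidation, while the retinal dehydrogenases make retinoic acid in many epithelia.

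The genes were expressed in similar number in the 3 libraries but at different levels. An FPKM above 1 was found for 40 of the 59 genes in the library labelled small intestine, 41 in the salivary glands and 41 in the liver, and 33 genes passed in all 3. Their FPKM summed to 969 in the library labelled small intestine, 1221 in the salivary glands and 2342 in the liver, which was 0.135%, 0.205% and 0.376% of all FPKM. The liver had the highest sum, of which DHDH alone gave 20.9%. The 5 genes with the highest FPKM held 45.6%, 41.0% and 45.9% of the sum in the same order.

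Against the library labelled small intestine, 29 of 46 genes tested were called (63.0%, beside 46.4% of all genes tested), and 19 were higher in the liver, or 41.3%, where 23.0% of all genes tested were called. Lower in the liver were 10 genes, or 21.7%, near the 23.4% of all genes. The median log2 ratio of liver over this library was 0.52 for the 46 genes and 0.08 for all genes tested. Against the salivary glands 30 of 46 genes were called (65.2%, beside 45.3%), and 18 were higher in the liver, or 39.1%, beside 23.4% of all genes, and 12 were lower, or 26.1%, beside 21.9%. Factors from the liver and the salivary glands alone had the same ratio (a log2 shift of 0), so they could not change these calls. The median log2 ratio of liver over salivary glands was 0.28 for the 46 genes and 0.06 for all genes tested. Between the other two libraries 18 of 46 genes were called (39.1%, beside 35.4%), of which 6 (13.0%) were higher in the one labelled small intestine and 12 (26.1%) in the salivary glands, where 19.2% and 16.2% of all genes were called. By library size only these were 3 and 19 genes, and by the ratio of FPKM 9 and 11. The 12 include AKR1C5 (gene26340), called from 6 against 1 counts at 5.34-fold with an interval that spans 1 (0.647 to 245). They also include RDH11 at 2.01-fold, or 1.92-fold by the ratio of FPKM, and both ALDH1A3 genes.

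**Figure D1:**
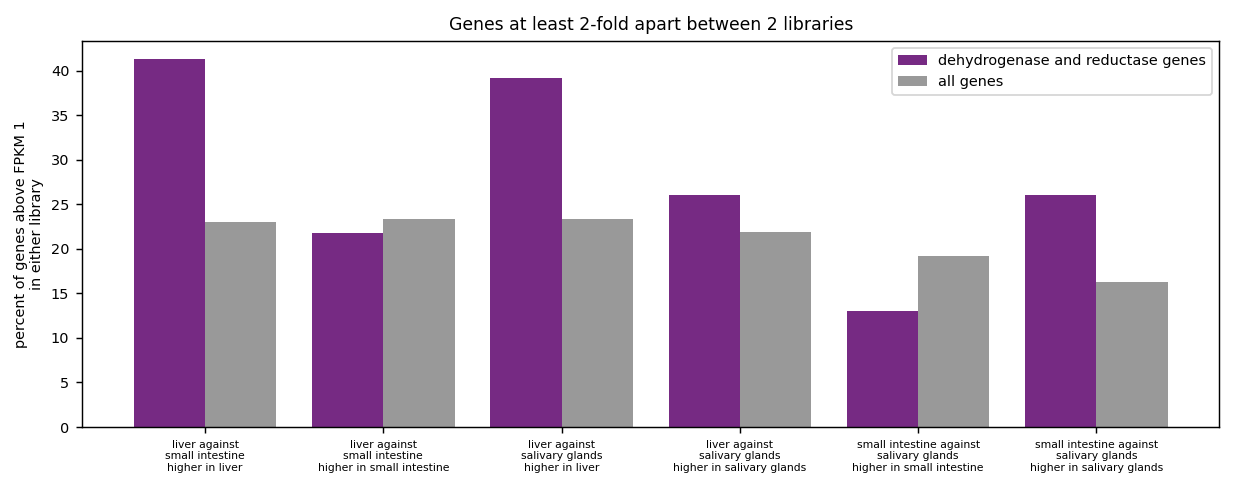
Percent of genes at least 2-fold apart between 2 libraries, for the dehydrogenase and reductase genes (purple bars) and for all genes (grey bars), by comparison and direction on the x axis. The purple bar stands above the grey one for genes higher in the liver (41.3% against 23.0% and 39.1% against 23.4%) and below it for genes higher in the library labelled small intestine than in the salivary glands (13.0% against 19.2%).

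Of the 49 genes with an FPKM above 1 in any library, 14 (28.6%) were called higher in the liver than in both other libraries, against 15.0% of all such genes. These were DHDH, 2 ALDH8A1 genes, AKR1C5 (gene26340), AKR1D1, HSD17B2, HSD11B1, AOX1, ALDH4A1, DHRS3, AKR1E2, RDH10, ALDH1L1 and ALDH3A2. The salivary glands led in the same way for 8 genes (16.3%, against 8.64% of all genes), namely 2 ALDH1A3 genes, ALDH18A1, ALDH1L2, AKR1C3-like, DHRS1, DHRS7 and DHRS13. The library labelled small intestine led for 3 genes (6.12%, against 11.4%), which were DHRS11, RDH12 and AOX4-like. For RDH12 the fold over the salivary glands was 1.95 by library size only, which ends its place among the 3. At under 2-fold in every comparison were 10 genes, or 20.4%, while 37.2% of all genes were.

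**Figure D2:**
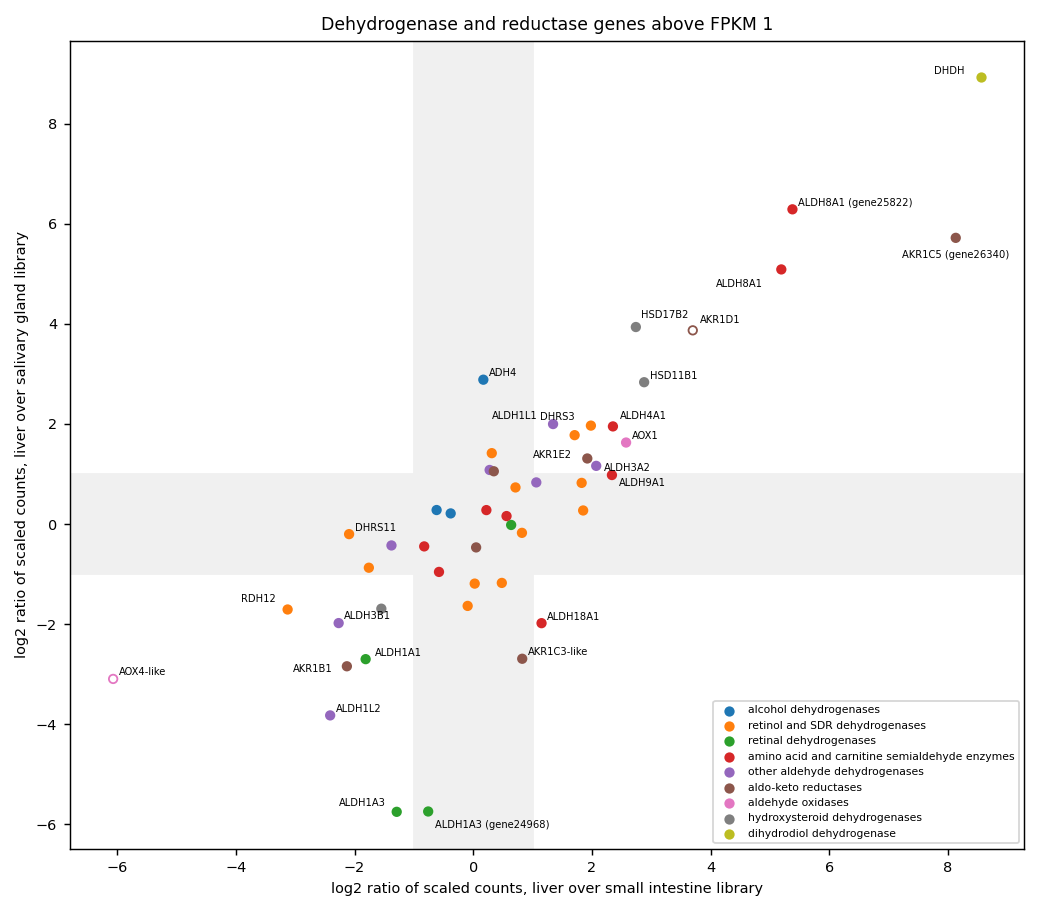
Log2 ratio of scaled counts of the liver over the library labelled small intestine (x axis) and over the salivary glands (y axis) for each gene with an FPKM above 1 in any library, coloured by enzyme group. Grey bands mark less than 2-fold, and open circles are genes with no count in 1 of the libraries, whose ratio is a bound. DHDH lies at the upper right and both ALDH1A3 genes at the bottom.

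The alcohol dehydrogenases proper were led by ADH5, the class III enzyme that clears formaldehyde bound to glutathione and is active in most cells. ADH5 (gene1538, scaffold NW_016528045.1, 80143 to 92035) had an FPKM of 109.9 in the library labelled small intestine, 66.9 in the salivary glands and 89.98 in the liver. It was among the genes at under 2-fold in every comparison, the widest gap being 1.51-fold (1.39 to 1.64) between the library labelled small intestine and the salivary glands. A shorter ADH5 gene (gene19708) had 6.09, 3.09 and 4.06 in the same order. Next to ADH5, 20608 bases upstream on the same strand, lies ADH4 (gene1537, 42010 to 59534), whose enzyme oxidizes retinol and longer alcohols and is known from the liver. Its FPKM was 5.42 in the library labelled small intestine, 0.833 in the salivary glands and 5.28 in the liver, from 105, 18 and 200 counts. ADH4 was 7.38-fold (4.55 to 12.7) higher in the liver and 6.56-fold (3.95 to 11.5) higher in the library labelled small intestine than in the salivary glands, while the liver and the library labelled small intestine were 1.13-fold apart (0.884 to 1.44). Summed FPKM of the 3 genes was 121.4, 70.8 and 99.3, so that this group was not led by the liver.

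The retinol and other short-chain dehydrogenases, 19 genes, had the highest summed FPKM of any group in the library labelled small intestine (360.0) and in the salivary glands (449), against 421 in the liver. The group was mixed. Of its 19 genes, 13 were expressed in at least 1 library. Of these 13, 4 were higher and 3 lower in the liver than in the library labelled small intestine, beside 23.0% and 23.4% of all genes tested. Against the salivary glands 3 of the 13 were higher and 3 lower in the liver, beside 23.4% and 21.9%.

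The 4 genes of this group higher in the liver than in the library labelled small intestine were RDH10, DHRS3, RDH11 and RDH14. RDH10, which turns retinol into retinal in the first step toward retinoic acid, had an FPKM of 17.4 in the library labelled small intestine, 14.3 in the salivary glands and 52.3 in the liver. DHRS3, which turns retinal back into retinol, had 24.3, 23.2 and 83.7 in the same order. The liver was thus higher for both of these opposed enzymes, by 3.27-fold (2.91 to 3.68) and 3.42-fold (3.06 to 3.84) for RDH10 and by 3.95-fold (3.54 to 4.43) and 3.91-fold (3.52 to 4.35) for DHRS3. RDH11, a retinal reductase of the endoplasmic reticulum, had 13.2 in the library labelled small intestine, 25.3 in the salivary glands and 52.5 in the liver. It was 3.55-fold (3.14 to 4.02) higher in the liver than in the library labelled small intestine, while the 1.77-fold over the salivary glands was not called, though it was 2.07-fold by the ratio of FPKM. RDH14, a related enzyme at 2.51, 7.36 and 8.97, was called only against the library labelled small intestine, in which it was 3.61-fold (2.62 to 5.09) lower than in the liver and 2.99-fold (2.12 to 4.29) lower than in the salivary glands. The RDH10 model shares 106 bases with that of RPL7 on the other strand, and since the alignment did not use strand, reads in such stretches cannot be told apart.

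Several other short-chain enzymes were not led by the liver. DHRS7, a microsomal reductase, had 78.5 in the library labelled small intestine, 164 in the salivary glands and 76.3 in the liver. DHRS1 had 27.5, 76.7 and 25.4 in the same order. Both were higher in the salivary glands than elsewhere, DHRS7 by 2.32-fold (2.13 to 2.53) and 2.28-fold (2.12 to 2.45) and DHRS1 by 2.91-fold (2.62 to 3.23) and 3.10-fold (2.84 to 3.39). DHRS4, a peroxisomal reductase of retinal and other carbonyls, had the highest FPKM of all 59 genes in the library labelled small intestine, 117, against 53.5 in the salivary glands and 33.1 in the liver. It was 3.39-fold (3.07 to 3.74) lower in the liver than in the library labelled small intestine. DHRS11, a reductase of steroid ketones, had 18.8 in the library labelled small intestine, 4.42 in the salivary glands and 3.78 in the liver. DHRS11 was 3.71-fold (2.96 to 4.69) and 4.26-fold (3.47 to 5.26) higher in that library than in the others. RDH13, a mitochondrial retinal reductase, had 11.9, 4.41 and 11.8, with the salivary glands 2.15-fold (1.77 to 2.62) and 2.67-fold (2.24 to 3.20) below the others, the former 1.57-fold with counts scaled by library size only.

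Among the short-chain genes 2 of FPKM 10 or more stayed under 2-fold. DHRSX, an enzyme of dolichol synthesis that the annotation gives the symbol RDH12, had 32.2 in the library labelled small intestine, 61.1 in the salivary glands and 51.4 in the liver. DHRS7B, an enzyme of ether lipid synthesis, had 12.7, 11.1 and 19.6. The largest of their folds was 1.99 (1.69 to 2.36), for DHRSX between the salivary glands and the library labelled small intestine, just inside the threshold and 2.74-fold by library size only. RDH12 itself (gene20739), known from photoreceptors and lying 11141 bases from RDH11, was low, with 1.998, 0.629 and 0.219.

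The retinal dehydrogenases, which make retinoic acid, were the group with the clearest lead of the salivary glands by summed FPKM, which is not scaled by the TMM factors. All 4 genes were expressed there and summed to 123, against 56.3 in the library labelled small intestine and 18.9 in the liver. ALDH1A1 (gene16335) had 54.6 in the library labelled small intestine, 96.4 in the salivary glands and 17.2 in the liver. It was 3.51-fold (3.15 to 3.93) and 6.49-fold (5.87 to 7.19) lower in the liver than in the other libraries. For ALDH1A1 the salivary glands stood 1.85-fold (1.71 to 1.99) above the library labelled small intestine. That was not called, though it was 2.53-fold by library size only. Of the 4 genes, only 2, both ALDH1A3, were called higher in the salivary glands than in the library labelled small intestine. ALDH1A3, which makes retinoic acid in epithelia and glands, was listed as 2 genes on different scaffolds. The longer (gene21279, scaffold NW_016549428.1, 5424 to 21693) had 0.644, 14.5 and 0.270 in the same order of libraries, from 13, 321 and 9 counts. The other (gene24968, scaffold NW_016568166.1, 3431 to 22739) had 0.391, 10.97 and 0.208 in the same order, from 4, 142 and 4 counts. Both were above an FPKM of 1 only in the salivary glands, which stood 21.96-fold (12.7 to 41.7) and 31.6-fold (12.1 to 117) above the library labelled small intestine and 53.7-fold (27.9 to 119) and 53.5-fold (20.4 to 199) above the liver. ALDH1A2, the enzyme known from embryos, was low, with 0.716, 1.16 and 1.22, and was called in no comparison, though by library size only the salivary glands were 2.16-fold above the library labelled small intestine.

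Among 23 genes of retinoid handling, a list named beside these enzymes, 4 of 14 tested were higher and 5 lower in the liver than in the library labelled small intestine, and 6 of 13 were higher and none lower than in the salivary glands. The counts of this and the further lists stand beside 23.0% of all genes higher and 23.4% lower in the liver than in the library labelled small intestine, and 23.4% and 21.9% against the salivary glands. RBP4, which carries retinol in blood, had an FPKM of 1.19 in the library labelled small intestine, 0 in the salivary glands and 1987 in the liver. The other leading gene carries the symbol TTR, but its product is 5-hydroxyisourate hydrolase (gene10056), with 22.8, 53.1 and 35.1. RBP4 was thus high where ALDH1A1 and ALDH1A3 were lowest.

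**Figure D3:**
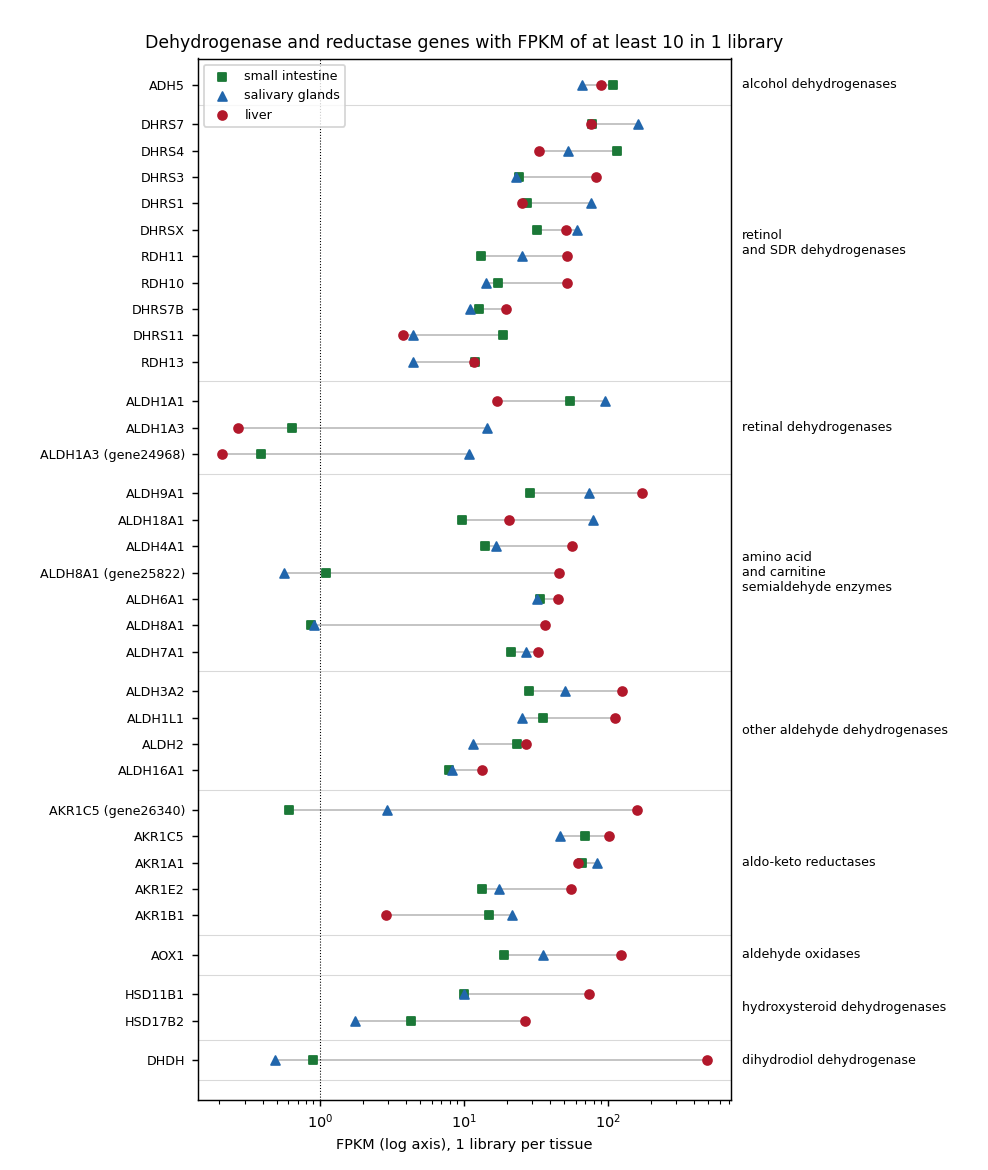
FPKM (log axis) of the 34 genes with an FPKM of at least 10 in 1 library, grouped by enzyme group on the y axis. Each point is 1 library, the grey line joins the lowest and the highest, and the dotted line marks an FPKM of 1. DHDH in the liver (490.1) lies farthest right, and the 2 ALDH1A3 genes cross the dotted line only in the salivary glands.

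Aldehyde dehydrogenases of amino acid and carnitine metabolism summed to 120.7 in the library labelled small intestine, 241 in the salivary glands and 417 in the liver. Of the 10 genes, 9 were expressed in at least 1 library. Of these 9, 5 were higher and none lower in the liver than in the library labelled small intestine, beside 23.0% and 23.4% of all genes tested. Copies of ALDH8A1 make 2 of the 5. ALDH9A1, an enzyme of carnitine synthesis, had 28.8, 74.3 and 173 in that order. It was 5.05-fold (4.63 to 5.52) higher in the liver than in the library labelled small intestine, and the 1.97-fold (1.86 to 2.09) over the salivary glands was just under the threshold, but 2.33-fold by the ratio of FPKM. ALDH8A1, an enzyme of tryptophan breakdown, was listed as 3 genes. The longest (gene6138, scaffold NW_016530828.1, 582829 to 595336) had 0.866 in the library labelled small intestine, 0.904 in the salivary glands and 36.7 in the liver, and a second (gene25822) had 1.11, 0.564 and 45.7. Both were high in the liver alone, gene6138 by 36.6-fold (23.3 to 61.0) and 34.0-fold (22.5 to 53.8) and gene25822 by 41.6-fold (22.5 to 87.2) and 78.0-fold (35.7 to 213). The third (gene26228) had no count in any library.

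The enzymes of proline metabolism differed in the order of the liver and the salivary glands. ALDH18A1, which makes the precursor of proline from glutamate, had an FPKM of 9.68 in the library labelled small intestine, 78.7 in the salivary glands and 20.5 in the liver. ALDH4A1, which oxidizes the same intermediate back to glutamate during proline breakdown, had 14.1, 16.8 and 57.0. The salivary glands stood 8.76-fold (7.80 to 9.85) and 3.94-fold (3.69 to 4.22) above the other libraries for ALDH18A1, which was also 2.22-fold (1.96 to 2.52) higher in the liver than in the library labelled small intestine, while the liver stood 5.11-fold (4.61 to 5.68) and 3.87-fold (3.54 to 4.22) above the others for ALDH4A1. ALDH6A1 of valine breakdown had 33.9, 32.5 and 45.0, and ALDH7A1 of lysine breakdown 21.2, 26.9 and 32.6. The 2 ALDH5A1 genes, for the enzyme that ends the breakdown of the transmitter GABA, had 4.41, 5.53 and 2.95 (gene23228) and 6.60, 4.67 and 3.62 (gene10755). None of these last 4 genes was called in any comparison, though ALDH5A1 (gene23228) was 2.26-fold lower in the liver than in the salivary glands by library size only.

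Of the other aldehyde dehydrogenases, 3 of 7 were higher and 3 lower in the liver than in the library labelled small intestine, beside 23.0% and 23.4% of all genes, and their FPKM summed to 102, 105 and 281. ALDH3A2, which oxidizes fatty aldehydes, had 28.3 in the library labelled small intestine, 50.3 in the salivary glands and 125 in the liver. It was 4.21-fold (3.90 to 4.54) and 2.24-fold (2.12 to 2.37) higher in the liver, the latter 1.92-fold with counts scaled by library size only. ALDH1L1, the cytosolic 10-formyltetrahydrofolate dehydrogenase of the folate cycle, had 35.9, 25.4 and 113, and its mitochondrial counterpart ALDH1L2 had 3.43, 7.28 and 0.770. The order of the libraries was thus reversed between the 2 folate enzymes. ALDH1L1 was 2.54-fold (2.42 to 2.67) and 3.99-fold (3.78 to 4.22) higher in the liver, while ALDH1L2 was 5.32-fold (3.83 to 7.50) and 14.1-fold (10.5 to 19.4) lower there.

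ALDH2, the mitochondrial enzyme that clears acetaldehyde from ethanol, had an FPKM of 23.5 in the library labelled small intestine, 11.7 in the salivary glands and 27.1 in the liver. Its liver level was 2.11-fold (1.86 to 2.41) that of the salivary glands, or 1.82-fold by library size only, and 1.21-fold (1.09 to 1.35) that of the library labelled small intestine, which was not called. ALDH1B1, a related mitochondrial enzyme, had 1.68, 0.803 and 0.613. ALDH16A1 had 7.92, 8.29 and 13.4, and was 2.09-fold (1.81 to 2.42) higher in the liver than in the library labelled small intestine, or 1.70-fold by the ratio of FPKM. ALDH16A1 and ALDH1L2 each share bases with a gene model on the other strand. Of 5 listed genes for other steps of ethanol and acetate metabolism, 4 were higher and none lower in the liver than in the library labelled small intestine. Against the salivary glands 2 of the 5 were higher and 0 lower in the liver. The 5 genes carry only 2 symbols, CAT and ACSS3. A mitochondrial acetyl-CoA synthetase (gene2896) had 32.2, 158 and 118, and catalase had 19.8, 22.2 and 57.4.

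The aldo-keto reductases summed to an FPKM of 166 in the library labelled small intestine, 179 in the salivary glands and 388 in the liver. AKR1A1, the general aldehyde reductase, had 66.5, 84.5 and 62.05 and was called in no comparison. AKR1B1, aldose reductase, which makes sorbitol from glucose, had 14.9 in the library labelled small intestine, 21.7 in the salivary glands and 2.90 in the liver. It was 4.38-fold (3.03 to 6.44) and 7.16-fold (5.09 to 10.3) lower in the liver, the only aldo-keto reductase below both other libraries by 2-fold. AKR1E2, a reductase of 1,5-anhydrofructose, had 13.3, 17.5 and 55.6, and was 3.79-fold (3.38 to 4.27) and 2.48-fold (2.26 to 2.72) higher in the liver. It overlaps AKR1C3-like, on the other strand, by 2504 bases. AKR1C3-like had 0.312, 5.52 and 0.857 and stood highest in the salivary glands, by 11.4-fold (5.33 to 29.3) and 6.45-fold (3.98 to 10.9).

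Both genes with the symbol AKR1C5 have prostaglandin F synthase 1 as their NR product, but their patterns differed. AKR1C5 (gene22552) had an FPKM of 70.2 in the library labelled small intestine, 46.4 in the salivary glands and 103 in the liver. AKR1C5 (gene26340, scaffold NW_016591392.1, 7 to 4381) had 0.611, 2.92 and 161, from 1, 6 and 475 counts. The first was 2.08-fold (1.86 to 2.32) higher in the liver than in the salivary glands, or 1.79-fold with counts scaled by library size only, and 1.27-fold (1.16 to 1.40) over the library labelled small intestine was not called. The second was high in the liver alone, 281-fold (50.1 to 11106) over the library labelled small intestine and 52.6-fold (23.98 to 144) over the salivary glands. The second is a model of 355 bases at the end of a scaffold, and reads shared between near-identical copies may have been split, so single values of these genes are uncertain. Summed over both, the FPKM was 70.8, 49.3 and 264.

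AKR1D1, which saturates a ring double bond in bile acid and steroid hormone synthesis, had 0 counts in the library labelled small intestine, 0 in the salivary glands and 66 in the liver, where its FPKM was 2.39. It was at least 13.0-fold and at least 14.6-fold higher in the liver, with a count of 0 set to the limit of 3 counts per library. Among 11 listed genes of bile acid synthesis, AKR1D1 included, 7 of 9 tested were higher and 2 lower in the liver than in the library labelled small intestine. The list, drawn up by symbol, also holds vitamin D hydroxylases, and 1 of the 2 lower genes is such an enzyme (gene217). CYP27A1 (gene2961), which starts side chain oxidation, had 7.77, 0.659 and 463, whereas ACOX2, a peroxisomal oxidase of the side chain, had 46.7, 7.08 and 2.45.

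Of 38 genes of other carbonyl reductases and dehydrogenases, 14 of 28 tested were higher and 1 lower in the liver than in the library labelled small intestine, and 10 were higher and 4 lower than in the salivary glands. Several of the higher genes in both comparisons are gene models of 1 product, carbonyl reductase 1 (CBR1). Among them, gene24255 had 0, 0 and 431 counts and gene16922 had 65, 25 and 781, in the usual order of libraries. Another CBR1 model (gene16162), at 33.0, 60.0 and 60.0 FPKM, was called in neither. HPGD, which inactivates prostaglandins, had 27.4 in the library labelled small intestine, 89.8 in the salivary glands and 166 in the liver. A gene with the symbol HSD17B11 and the product 17-beta-hydroxysteroid dehydrogenase 13 (gene21246), a lipid droplet protein, had 6.31, 96.9 and 1.17, highest in the salivary glands.

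**Figure D4:**
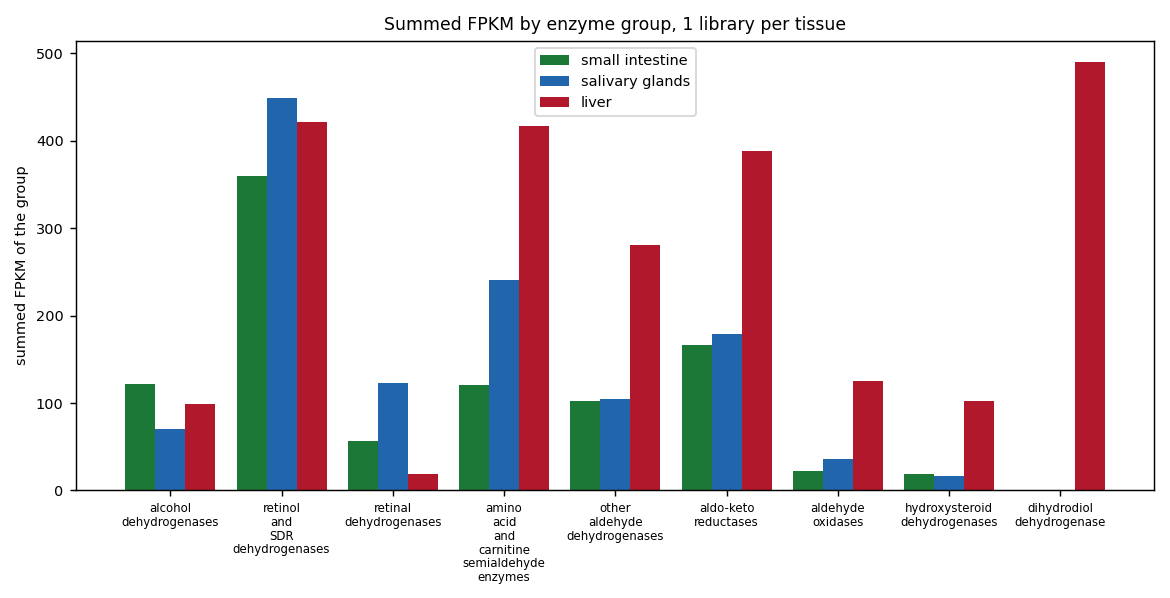
Summed FPKM (y axis, linear from 0) of the genes of each of 9 enzyme groups (x axis), 1 bar per library. The sums are not scaled by the TMM factors. Where they are close, as in the retinol and short-chain group, the order of the libraries depends on the scaling. The liver bar is the tallest in 6 groups, the salivary gland bar in the retinol and short-chain group (449) and the retinal dehydrogenases (123), and the bar of the library labelled small intestine in the alcohol dehydrogenases (121.4).

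Aldehyde oxidases oxidize aldehydes and nitrogen heterocycles with a molybdenum cofactor, and 3 of the genes lie in a row on scaffold NW_016529452.1. AOX1 (gene3917, 23890 to 89303) had an FPKM of 19.2 in the library labelled small intestine, 35.8 in the salivary glands and 125 in the liver, from 885, 1919 and 8934 counts. AOX4-like (gene3918, 146692 to 219346), 57388 bases on, had 2.87, 0.357 and 0, from 119, 17 and 0 counts. AOX1 was highest in the liver, by 5.96-fold (5.56 to 6.40) and 3.09-fold (2.94 to 3.25), and its neighbour highest in the library labelled small intestine, by at least 67.1-fold over the liver and by 7.87-fold (4.71 to 14.0) over the salivary glands. The next gene, AOX-like (gene3919), was at or under 0.299 in every library, and a further AOX1 model on another scaffold (gene26155) had no count.

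The genes that build the molybdenum cofactor, with the other enzymes that use it, were higher in the liver than in the library labelled small intestine for 8 of 11 and lower for none, and against the salivary glands 5 were higher and 1 lower. Gephyrin gene models make 4 of the 8, and 3 of these had at most 6 counts in the library labelled small intestine. XDH, xanthine dehydrogenase, the closest relative of the aldehyde oxidases, had 104 in the library labelled small intestine, 126 in the salivary glands and 96.1 in the liver. MOCS1, of the first step of cofactor synthesis, had 10.8, 7.32 and 64.2. The liver stood 6.43-fold and 8.66-fold above the others for MOCS1, while XDH was within 2-fold.

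The steroid group was led by HSD11B1, which makes active cortisol from cortisone. HSD11B1 (gene8614) had an FPKM of 10.1 in the library labelled small intestine, 10.001 in the salivary glands and 74.02 in the liver, from 99, 115 and 1234 counts. It was 7.36-fold (5.997 to 9.13) and 7.13-fold (5.88 to 8.70) higher in the liver, and the other two were 1.03-fold apart (0.783 to 1.37). HSD11B2 (gene2822), which works in the opposite direction, had 0.345, 0.495 and 0.101, below an FPKM of 1 in each. HSD11B1L had 4.31, 4.79 and 1.33, and was 2.93-fold (2.16 to 3.99) and 3.23-fold (2.41 to 4.35) lower in the liver. Its model shares 780 bases with that of QIL1 on the other strand, where reads cannot be told apart.

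A second gene with the symbol HSD11B2 (gene12013) has estradiol 17-beta-dehydrogenase 2, HSD17B2, as its NR product, an enzyme that inactivates estradiol and testosterone. It had 4.31 in the library labelled small intestine, 1.76 in the salivary glands and 26.6 in the liver, and was 6.68-fold (5.09 to 8.93) and 15.3-fold (10.5 to 23.2) higher in the liver. Of 8 listed genes of glucocorticoid handling, 2 of 5 tested were higher and 0 lower in the liver than in the library labelled small intestine. Against the salivary glands 2 of 6 tested were higher and 1 lower in the liver. H6PD, which supplies HSD11B1 with NADPH, had 40.4, 74.5 and 3465, and SERPINA6, the corticosteroid carrier of blood, had 0, 0 and 40.9. The liver was thus the highest library for HSD11B1, H6PD and SERPINA6.

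DHDH, dihydrodiol dehydrogenase, which oxidizes the trans-dihydrodiols of aromatic hydrocarbons, showed the largest gap of the genes with more than 3 counts in each library. DHDH (gene11860, scaffold NW_016535442.1, 150626 to 162273) had an FPKM of 0.892 in the library labelled small intestine, 0.490 in the salivary glands and 490.1 in the liver, from 16, 14 and 10209 counts. It was 377-fold (232 to 660) and 484-fold (289 to 886) higher in the liver, and the other two were 1.28-fold apart (0.588 to 2.84). Its FPKM in the library labelled small intestine was 0.182% of that in the liver, and in the salivary glands 0.0999%. ALDH16A1, on the same scaffold at a distance of 258610 bases, had no such gap.

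Of the 59 genes, 25 stayed under an FPKM of 10 in every library. Above 1 in at least 1 library were 15 of these, and the other 10 were not, 5 of them with no count anywhere, namely ALDH8A1 (gene26228), AOX1 (gene26155), DHRS2, DHRS7C and RDH13-like. ALDH3B1, which acts on aldehydes of membrane lipids, had 1.52, 1.16 and 0.320 in the same order, and DHRS13 had 0.909, 2.52 and 1.021. RDH5 and RDH8, enzymes of the eye, reached at most 0.662 and 0.708, and DHRS9 reached at most 0.852.

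Names and levels have 2 limits. The name used here, taken from the NR product, was the same as the symbol for 42 of the 61 genes and differed for 19. This compares names and not enzymes, and AKR1C3-like, with the symbol AKR1C3, is among the 19. The symbol RDH12 was carried by 7 genes and ALDH1A1 by 4. For the 44 genes with at least 20 counts in the liver, FPKM divided by the count scaled to length and library size ran from 0.760 to 2.82 (median 1.13), so that the order of genes by level depends on the transcript length used.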

How the data were processed

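Poly-A RNA from 3 tissues of 1 animal was read from both ends on an Illumina HiSeq. The authors removed reads with adaptors or of low quality and aligned the rest with TopHat2, without strand, to the M. javanica genome, whose build is not given in the sources used here. The deposited counts are whole fragments per gene that the authors did not scale. The deposited FPKM values were scaled by the authors for transcript length and mapped fragments. The deposited score named Normalized, counts that the authors multiplied by 1 factor for each library, was looked at but not used. The deposited annotation gave symbols, NR products and positions.

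Tables were read with Python 3.11.15 and pandas 2.3.3, intervals came from scipy 1.17.1, TMM factors over the 3 libraries from edgeR 4.0.16 in R 4.3.3, and figures from matplotlib 3.10.9. The factors were 0.851 (library labelled small intestine), 1.17 (salivary glands) and 1.005 (liver). With 1 library per tissue no test was run, and a gene was called at 2-fold or more with an FPKM above 1 in the higher library. A count of 0 was set to 3 counts. The code for the calls was checked on simulated counts. Members and lists were chosen with earlier results of these data known. Named with all values are genes with an FPKM of at least 10 in 1 library, copies that share a product, and the 2 genes of highest FPKM in each further list. Other genes under that level were named after their values were seen. Alternatives were other scalings, units, folds, filters on low values, and lists by product. No table of RefSeq genes was joined, and no sequence was read.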

Additional observations from a re-analysis of the deposited data

How the results depend on the processing

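No paired analysis was possible because there was 1 library per tissue, and for the same reason no replicate could be left out. At 4-fold, 17, 14 and 7 genes were called in place of 29, 30 and 18 (liver against small intestine, liver against salivary glands, and the other two). Under the other settings these counts stayed within 1.5 times. The summed FPKM of the liver was 2.42 times that of the library labelled small intestine, and 2.78 in TPM, 2.90 in percent of counts, 2.85 in counts per kilobase, 2.05 with FPKM scaled by TMM, 2.17 without the highest gene of each library, 1.91 without DHDH and 2.17 with genes found by product name too. Over the salivary glands it was 1.92, and 1.84, 1.51, 1.39, 2.23, 1.75, 1.52 and 2.01 in the same order. The library labelled small intestine over the salivary glands was 0.793, and 0.662 in TPM, 0.520 in percent of counts, 0.489 in counts per kilobase, 0.926 with genes by product name too and, turned in direction, 1.09 with FPKM scaled by TMM. The cause was not tested. Between these 2 libraries 6 genes were higher in the first and 12 in the second (33.3% against 66.7% of calls), but 3 and 19 (13.6%) by library size only, which shifts that log2 ratio by -0.46 (and those of the liver by 0.24 and -0.22), and 9 and 11 (45.0%) by the ratio of FPKM. By library size only, ALDH2, ALDH3A2 and AKR1C5 (gene22552) were 1.82-, 1.92- and 1.79-fold higher in the liver than in the salivary glands, under the threshold. Of 510 values of single named genes under other scalings and the ratio of FPKM, 104 moved beyond their interval and 14 changed direction, in 12 ratios of at most 1.28-fold, and 0 of the 280 values of ratios at 2-fold or more did. The 510 values include those with TMM factors from only the 2 libraries compared. For both comparisons of the liver these factors had a log2 shift of 0, so those values could not move. Counts per kilobase, and the sum without DHDH or with genes found by product name, were chosen after seeing the data. Depth limits genes with few counts, such as AKR1C5 (gene26340).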

Other observations

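Some genes whose product belongs to the same enzyme families carry another symbol or none, and were looked up by product name after the values above were seen. Of 4 genes that the KEGG annotation assigns to alcohol dehydrogenase, 1 (gene20453) falls outside the symbols used. Its KEGG entry covers class I and class IV enzymes together, its NR hit is a horse liver alcohol dehydrogenase, and its class was not settled here. This gene had an FPKM of 11.6 in the library labelled small intestine, 15.8 in the salivary glands and 0.322 in the liver, from 218, 331 and 9 counts. It was 41.0-fold (21.2 to 90.9) and 55.4-fold (28.8 to 122) lower in the liver than in the other libraries.

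A gene with the product retinol dehydrogenase 16 (gene13971) had 0.127, 0 and 70.0 in the same order, from 2, 0 and 2323 counts, and was highest in the liver. Among further genes with the product prostaglandin F synthase 1, gene18158 had 159, 12.9 and 23.7 and gene21066 had 1.66, 0.265 and 76.0. These were highest in different libraries, the first in the one labelled small intestine and the second in the liver. With 8 such genes added in the expression tables, the number came to 67.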
